A study of Mus musculus with 4 samples.

Results

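Genes for the proteins of the cytosolic ribosome were taken by name: every annotated symbol that starts with Rpl or Rps and a digit, or with Rplp0, Rplp1 or Rplp2, without pseudogene symbols ending in -ps and without the Rps6k kinases. This gave 85 of the 32285 genes in the gene table. Of the 100 names that match the 3 patterns, 5 were -ps symbols and 10 were Rps6k kinases. The 85 comprise 33 Rps genes of the small 40S subunit and 52 Rpl or Rplp genes of the large 60S subunit. Of these, 76 are canonical components (30 of the 40S and 46 of the 60S), and 9 are paralogs or genes that only share the name (Rpl3l, Rpl7l1, Rpl10l, Rpl22l1, Rpl36al, Rpl39l, Rps27l, Rps27rt and Rps19bp1). The name rule leaves out 4 genes that also encode ribosomal components, among them Rpsa, Fau and Rack1, and these were followed as a separate list.

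A cytosolic ribosome is built from ribosomal RNA and one copy of most of these proteins, so cells make the proteins in near-equal amounts. Their mRNAs are short, abundant and stable, and many begin with a C followed by a run of pyrimidines, the 5′ terminal oligopyrimidine (TOP) tract through which growth signalling controls their translation. In neurons the proteins are made in the cytoplasm and carried back to the nucleolus for assembly, and the nucleus holds only newly made, unspliced or not yet exported transcripts of these genes.

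The data are single-nucleus RNA-seq of cortex from C57BL/6 mice aged 5 months, with 2 wildtype animals and 2 Setdb1-CK-cKO animals (called knockout here), 1 library each. Setdb1 encodes a histone H3 lysine 9 methyltransferase, and cKO stands for conditional knockout. The sources used here do not give what drives the deletion, which exon is removed or what CK stands for. Nuclei were purified through a sucrose cushion and captured on 10x Genomics 3′ chips, so each count is a unique molecular identifier (UMI), 1 captured transcript. The values below are RNA of barcodes from this nuclear preparation. RNA from outside the nucleus is present among them, since mitochondrially encoded and erythroid RNA was counted (values below), and how much of the ribosomal protein RNA is of that kind was not estimated.

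The 4 libraries held 11790 to 14493 barcodes and 38314394 to 45605971 UMIs. After filters and removal of 2656 predicted doublets, 51846 nuclei were kept, of which 48788 fell in 12 classes named from marker genes and 11 classes had at least 30 nuclei in every library. A class name such as excitatory neuron stands for nuclei that resemble that type by these markers. Pairs of libraries shared 48 to 64 barcodes, at most 0.483% of the smaller library. Both knockout libraries went against the sex given for them. Xist, expressed from the inactive X chromosome, was at 1.67, 1025, 1.07 and 1434 counts per 1000000 UMIs (CPM) in wildtype 1, wildtype 2, knockout 1 and knockout 2, and Y-linked Uty was at 86.3, 0.140, 77.2 and 0.0395 CPM. Knockout 1 is listed as female and knockout 2 as male. Setdb1 itself was at 71.6, 67.0, 72.1 and 67.2 CPM in excitatory neurons and did not pass the test (log2 fold change −0.02 ± 0.085 SE, adjusted p = 0.904). Tags at the 3′ end may lie outside the deleted part, so Setdb1 counts do not check the labels, and "knockout" below means the libraries so labelled.

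Where transcription of these genes starts is shown first, because the TOP tract is the sequence that the family is known for. RefSeq start windows (GRCm38.p6) were matched by symbol for 65 of the 85 genes, giving 77 windows of 300 bases (250 before the start and 50 from it on), with 10 genes having more than 1. A C followed by 4 pyrimidines stood exactly at the annotated start in 14 of the 77 windows (18.2%) against 2.51% of all 32851 windows. The same 5 letters began within 5 bases of the start in 32 of the 77 (41.6%), against 18.3% of all windows. The motif CCGGAA, the core letters of ETS-family sites, was present on either strand in 46.8% of the ribosomal windows and 14.9% of all. AAGATGGC, the core letters of YY1 sites, was in 10.4% against 2.75%, and TATAAA in 9.09% against 13.6%. A match is only a match of letters.

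Below are the 30 bases around the annotated start (15 before it and 15 from it on) of the genes with a single RefSeq window among those at either end of the excitatory neuron ranking and the P-stalk genes. Capitals mark a pyrimidine tract of 5 or more letters that opens with a C within 5 bases of the start.
Rpl22l1, chr3:28805493-28805522, plus strand: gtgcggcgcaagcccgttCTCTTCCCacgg
Rps7, chr12:28635939-28635968, minus strand: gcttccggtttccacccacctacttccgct
Rpl37, chr15:5116598-5116627, plus strand: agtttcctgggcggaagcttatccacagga
Rplp2, chr7:141447636-141447665, plus strand: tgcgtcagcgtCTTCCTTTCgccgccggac
Rplp0, chr5:115559452-115559481, plus strand: gtcttcgggtttcgaggaccgcctggttct
Rps6, chr4:86857353-86857382, minus strand: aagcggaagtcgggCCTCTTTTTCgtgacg
Rpl5, chr5:107900513-107900542, plus strand: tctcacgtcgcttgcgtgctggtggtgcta
Rpl15, chr14:18270972-18271001, minus strand: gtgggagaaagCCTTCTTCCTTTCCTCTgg
Rpl7l1, chr17:46782642-46782671, minus strand: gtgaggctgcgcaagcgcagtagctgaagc
Rpl4, chr9:64173372-64173401, plus strand: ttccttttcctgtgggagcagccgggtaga
Genes with a tract stand at both ends of the ranking: Rpl22l1 is among the 8 highest, and Rps6 and Rpl15 are among the 8 lowest. The annotated start can lie some bases away from the start used in cortex, which these data do not show.

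The summed RNA of the 85 genes took a larger share of the UMIs in both knockout libraries than in either wildtype library, in each of the 12 named classes. In excitatory neurons, the class with the most nuclei (27099), the share was 0.356% in wildtype 1, 0.419% in wildtype 2, 0.511% in knockout 1 and 0.578% in knockout 2. Counting error was small beside these differences, with a Wilson 95% interval of 0.354 to 0.358% in wildtype 1. The groups did not overlap, and the ratio of the mean knockout share to the mean wildtype share was 1.41. In oligodendrocytes, the myelinating glia, the shares were 1.11, 1.25, 1.51 and 1.71% in the same order, a ratio of 1.36. Inhibitory neurons had 0.414, 0.491, 0.579 and 0.636% (ratio 1.34). The neuronal shares were the lowest of the larger classes, and the oligodendrocyte share of each library was more than that of its astrocytes.

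Astrocytes had 0.733, 0.862, 1.07 and 1.12% (ratio 1.37). This class joins 3 clusters that hold the genotypes in unlike numbers. Cluster 17 had 1028, 984, 475 and 487 nuclei, cluster 19 (led by Gm48619 and Def8) had 16, 29, 195 and 362, and cluster 27 had 47, 30, 2 and 3. In cluster 17 alone, a comparison added after seeing the data, the shares were 0.771, 0.933, 1.12 and 1.33% (ratio 1.44). In cluster 19 they were 0.290, 0.344, 0.974 and 0.942%, but its few wildtype nuclei were deep (medians of 6963 and 5664 UMIs, against 1586 and 1325 in the knockout libraries).

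Microglia, the resident immune cells of the brain, had 1.29, 1.46, 1.82 and 1.93% (ratio 1.36). Oligodendrocyte precursors had 0.714, 0.870, 0.975 and 1.13% (ratio 1.33). In each of these classes the order of the 4 libraries was the same, with wildtype 1 lowest and knockout 2 highest. The smaller classes had few UMIs but stood on the same side: the ratio was 1.46 in fibroblasts, 1.43 in mural cells, 1.39 in endothelial cells and 1.32 in committed oligodendrocyte precursors. A neuron class led by Pbx3 and Rgs9 had 0.501, 0.551, 0.829 and 0.622% (ratio 1.38). Border macrophages, with too few nuclei for a test, had 1.11, 1.10, 1.36 and 1.14% (ratio 1.13), so there knockout 2 lay close to the wildtype libraries.

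**Figure D1:**
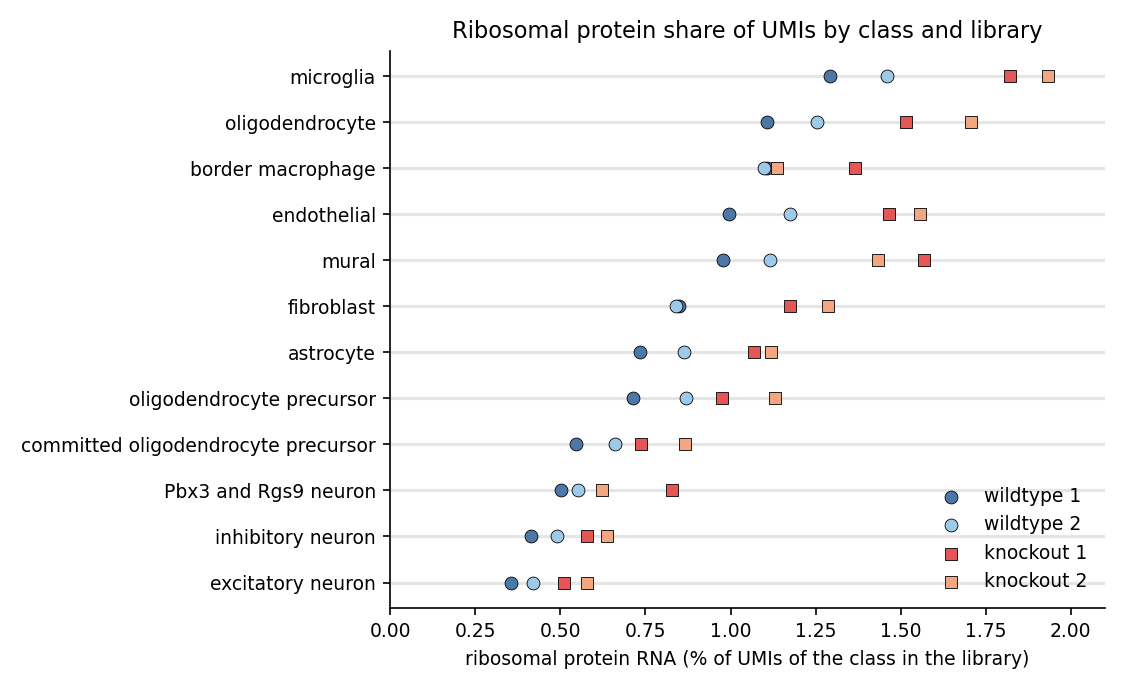
Share of each class's UMIs that came from the 85 ribosomal protein genes (x axis, %), for the 12 classes (y axis), 1 point per library. The grey lines are guides for reading, and no intervals are drawn. In excitatory neurons the points run from 0.356 to 0.578%, and in microglia from 1.29 to 1.93%, with both knockout points to the right of both wildtype points.

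The spread between animals of 1 genotype was not small beside the difference between genotypes. Wildtype 1 was the lowest library in 10 of the 12 classes and knockout 2 the highest in 9 of the 12. The ratio of wildtype 2 to wildtype 1 ran from 0.990 to 1.22 over the classes, and the ratio of knockout 2 to knockout 1 from 0.751 to 1.17. Between libraries of like sex-linked RNA, the share ratio was 1.23 to 1.65 for knockout 1 over wildtype 1 and 1.03 to 1.53 for knockout 2 over wildtype 2. The knockout library was thus the higher one in both such pairs in each of the 12 classes. The lowest ratio, 1.03, was that of border macrophages, which had too few nuclei for a test. The ratio was smaller in the Xist-expressing pair in every class but fibroblasts, where it was 1.53 against 1.39. In excitatory neurons it was 1.38 against 1.44.

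Among the 14 neuronal subclasses and unnamed neuronal clusters the ratio was 1.30 to 1.49, again with both knockout libraries above both wildtype libraries in 14 of 14. Layer 2/3 intratelencephalic (IT) neurons had 0.343, 0.410, 0.480 and 0.537%. Layer 6 corticothalamic (CT) neurons had 0.385, 0.455, 0.562 and 0.635%. Pvalb neurons, the fast-spiking interneurons, had 0.398, 0.458, 0.562 and 0.605%. The order of the libraries was the same in these 3, from wildtype 1 to knockout 2.

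Depth per nucleus did not follow the genotype, but it was lowest in knockout 2. Median UMIs per excitatory nucleus were 4056.5, 3590, 3946.5 and 3154.5. The ribosomal share falls as depth rises, so nuclei were also compared within ranges of UMIs. In excitatory nuclei with 1000 to 2000 UMIs the shares were 0.567, 0.708, 0.892 and 0.938%. At 2000 to 4000 UMIs they were 0.434, 0.5003, 0.648 and 0.657%, at 4000 to 8000 UMIs 0.329, 0.357, 0.457 and 0.459%, and at 8000 or more 0.244, 0.252, 0.323 and 0.324%. Within each range the knockout shares exceeded both wildtype shares, and the 2 libraries of a genotype lay closer together in the deepest nuclei. Over all classes 21 such ranges held 20 nuclei or more in every library, and in 21 of 21 the groups did not overlap, with ratios of 1.21 to 1.52. Over all astrocytes of 2000 UMIs or more they did overlap, at 0.590, 0.555, 0.796 and 0.559%, so knockout 2 lay below wildtype 1. Most of these nuclei were of cluster 17 in wildtype 1 (162 of 199) and of cluster 19 in knockout 2 (68 of 82). Within cluster 17 the shares above that depth were 0.678, 0.744, 0.889 and 1.03%, without overlap, the last from 13 nuclei.

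**Figure D2:**
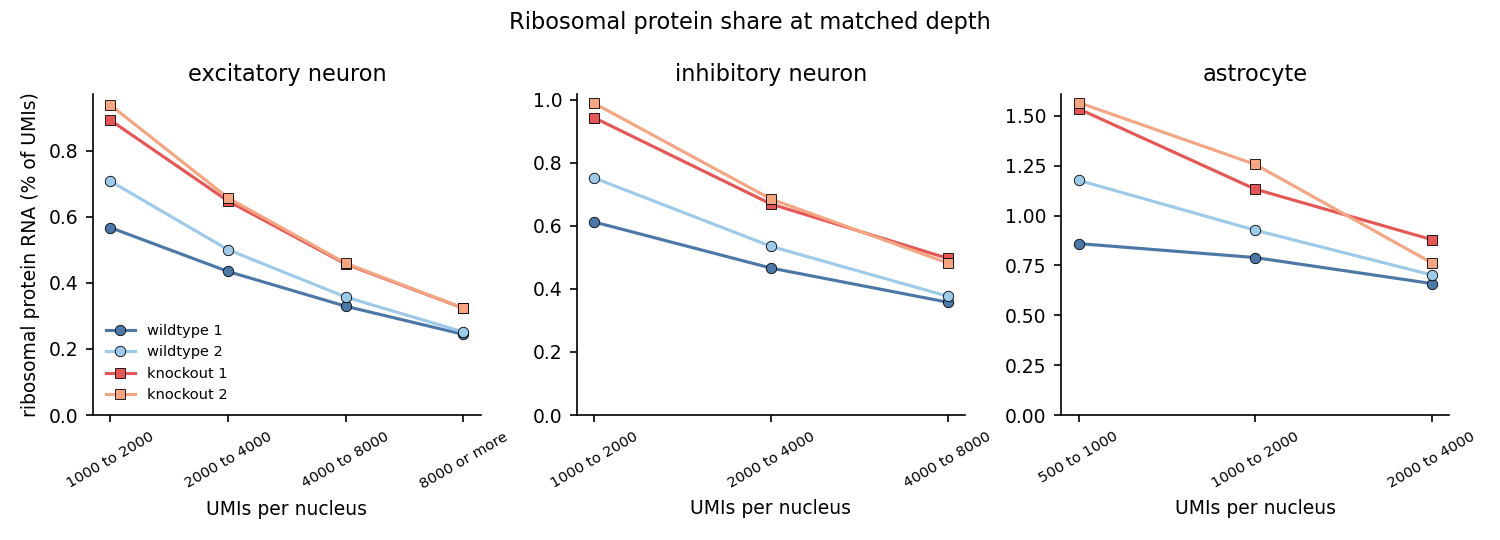
Ribosomal protein share of UMIs (y axis, %) in nuclei grouped by their UMI count (x axis), 1 line per library, in excitatory neurons, inhibitory neurons and astrocytes. In excitatory nuclei of 8000 or more UMIs the wildtype libraries were at 0.244 and 0.252% and the knockout libraries at 0.323 and 0.324%.

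Mitochondrially encoded RNA, which a nucleus does not make, moved in part with the shift. It took 0.103, 0.174, 0.239 and 0.184% of excitatory UMIs in wildtype 1, wildtype 2, knockout 1 and knockout 2. Wildtype 1 was lowest there too, but knockout 1 was highest, whereas knockout 2 had the highest ribosomal share. Its part in the ribosomal result was not tested. With only nuclei of at most 0.5% mitochondrial UMIs, the excitatory count of ribosomal protein genes called higher was 29, against 32 with all nuclei. That limit cannot decide the question, because the median excitatory nucleus lay well below it in every library. The medians were 0.073, 0.117, 0.163 and 0.115% in wildtype 1, wildtype 2, knockout 1 and knockout 2.

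Gene by gene, excitatory neurons had the most counts (25313918 to 29942251 UMIs per library) and the most calls. Each gene was tested on summed UMIs per library with edgeR's quasi-likelihood test and Benjamini-Hochberg adjustment over all 19134 genes tested in the class; a gene was called at an adjusted p under 0.05. Of the 85 genes, 83 passed the filter on low counts, and Rpl10l and Rpl39l did not. Of the 83, 32 were called higher in the knockout libraries and 0 lower (0 with an unadjusted p under 0.05, and 0 by DESeq2). Over all genes tested 2.94% were called higher and 1.3% lower. The log2 fold change was positive for 82 of the 83, with a median of 0.47 (interquartile range 0.40 to 0.52) and a median SE of 0.113. The knockout values exceeded both wildtype values in 79 of the 83 genes, against 26.6% of all genes tested.

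The count of calls rests on single libraries: it was 0 without wildtype 1, 46 without wildtype 2, 72 without knockout 1 and 26 without knockout 2. The share of all genes called in these runs is not given. Such counts, here and for the classes and lists below, show only that the calls depend on single libraries. The family's median log2 fold change moved less, between 0.36 without wildtype 1 and 0.58 without wildtype 2. DESeq2's Wald test called 51 (3.13% of all genes), and edgeR without the filter on low counts called 0. The replicate numbers also pair the libraries by sex-linked RNA, and with that pair as a block 72 were called, against 9.8% of all genes.

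Of the 40S genes, 14 of 33 tested were called higher, with a median log2 fold change of 0.49. Rps20, a protein of the 40S head, stood at 33.7, 42.8, 53.6 and 63.4 CPM in wildtype 1, wildtype 2, knockout 1 and knockout 2 (log2 fold change 0.61 ± 0.136 SE, adjusted p = 0.0445). Rps27a, made as a fusion with ubiquitin, was at 53.6, 64.6, 82.9 and 92.8 CPM (0.57 ± 0.108, adjusted p = 0.0256). In both genes the knockout libraries were above both wildtype libraries, with knockout 2 the higher.

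Rps24 was at 46.2, 56.4, 70.4 and 82.0 CPM (log2 fold change 0.57 ± 0.120, adjusted p = 0.0375). Rps7 was at 41.9, 47.0, 60.01 and 71.5 CPM (0.56 ± 0.113, adjusted p = 0.0315). Both are 40S proteins whose genes are known from Diamond-Blackfan anaemia. At the other end of the 40S genes stood Rps6, the subunit's main phosphoprotein and the substrate of the S6 kinases. It had 20.5, 20.5, 22.6 and 24.9 CPM, with both knockout libraries above the wildtype ones by a small margin, and did not pass (log2 fold change 0.21 ± 0.105, adjusted p = 0.296).

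Of the 60S genes, 18 of 50 tested were called higher, with a median of 0.46. Rpl35a was at 40.5, 51.8, 68.4 and 76.8 CPM, without overlap (log2 fold change 0.65 ± 0.126, adjusted p = 0.0275). Its gene overlaps Gm17106 on the opposite strand, and the strand setting of the counting is not given in the sources used here, so reads of the 2 cannot be told apart. Rpl37 was at 70.6, 81.1, 101 and 122 CPM (0.56 ± 0.111, adjusted p = 0.0299).

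The lowest changes were all 60S genes but for Rps6. Rpl4, a large protein that lines the exit tunnel, was at 18.6, 21.2, 20.4 and 20.3 CPM, so the groups overlapped (log2 fold change 0.03 ± 0.112, adjusted p = 0.900). Rpl22, an RNA-binding protein, was at 23.2, 22.6, 25.2 and 25.3 CPM (0.14 ± 0.099, adjusted p = 0.451). Rpl15, one of the more abundant of the family here, was at 92.7, 97.6, 99.9 and 114 CPM (0.17 ± 0.088, adjusted p = 0.328). Rpl5, which with Rpl11 and 5S RNA can bind the p53 regulator Mdm2, was at 39.3, 39.0, 42.7 and 47.3 CPM (0.20 ± 0.099, adjusted p = 0.291). In Rpl22, Rpl15 and Rpl5 the knockout libraries lay just above the wildtype ones, and none of these passed the test.

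The P-stalk proteins, which recruit elongation factors to the 60S subunit, were measured for all 3 genes, and none was called. Rplp1 was at 72.5, 96.8, 106 and 139 CPM (log2 fold change 0.53 ± 0.158, adjusted p = 0.103). Rplp2 was at 51.2, 62.3, 70.3 and 83.8 CPM (0.44 ± 0.121, adjusted p = 0.0863). Rplp0, the stalk's base, was at 16.0, 16.4, 17.6 and 22.6 CPM (0.31 ± 0.138, adjusted p = 0.245). The groups did not overlap in any of the 3, and in Rplp0 knockout 1 was closer to the wildtype libraries than to knockout 2.

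**Figure D3:**
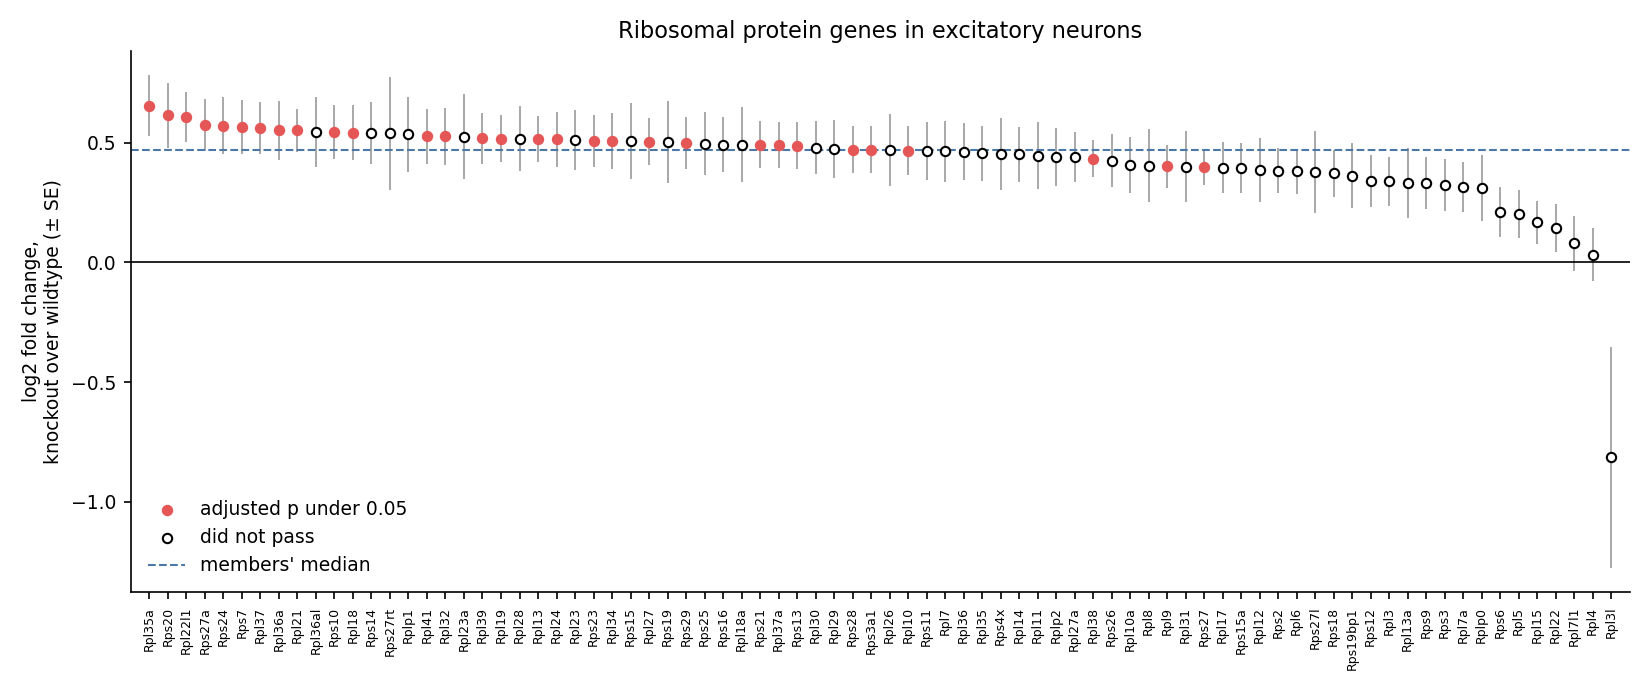
Log2 fold change of 80 of the 83 tested genes in excitatory neurons, knockout over wildtype (y axis, ± SE), ordered by size (x axis); filled points had an adjusted p under 0.05. The dashed line is the median of the 83, 0.47; the points run from 0.65 (Rpl35a) to 0.03 (Rpl4), all above 0 but for Rpl3l at −0.81.

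The paralogs and the genes that share only the name did not move as a block: 1 of 7 tested was called, with a median of 0.38. That 1 was Rpl22l1, the paralog of Rpl22, at 24.02, 23.3, 34.6 and 37.6 CPM, without overlap (log2 fold change 0.61 ± 0.103, adjusted p = 0.016). Rpl22l1 overlaps Gm33051 on the opposite strand. Rpl36al, a near-identical copy of Rpl36a, was at 28.5, 36.8, 43.3 and 52.1 CPM (0.54 ± 0.145, adjusted p = 0.0802), and reads may be split between the copies. Rpl7l1, a protein of early 60S assembly, was at 17.8, 16.1, 18.5 and 17.3 CPM with overlapping groups (0.08 ± 0.115, adjusted p = 0.742).

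Rps27l was at 4.41, 3.63, 5.36 and 5.08 CPM (log2 fold change 0.38 ± 0.170, adjusted p = 0.254). Rps19bp1, a nucleolar binding partner of Rps19 and no ribosomal protein, was at 7.16, 8.14, 9.52 and 10.1 CPM (0.36 ± 0.136, adjusted p = 0.179). Rpl3l, the striated muscle form of Rpl3, was the only tested gene with a negative value, from 25, 19, 6 and 16 UMIs in all excitatory nuclei (0.848, 0.670, 0.233 and 0.630 CPM). The groups did not overlap, by a narrow margin in knockout 2, and the gene did not pass (−0.81 ± 0.461, adjusted p = 0.361).

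Rpl39l, a paralog of Rpl39 known from testis, was too rare for a test. It had 0, 0, 10 and 5 UMIs in excitatory neurons, which is at least 5.77-fold higher in the knockout libraries against a floor of 3 UMIs over the wildtype group. In each other tested class it had 0 to 2 UMIs per library, all of them in knockout libraries. Rpl10l, a testis paralog of Rpl10, had 0 UMIs in every library. Rps4l, a further paralog, is not among the 85 names. The -ps pseudogenes left out by the rule had 0 to 435 UMIs each over all nuclei, and how reads that match several copies were counted is not given in the sources used here.

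Whether the shift was uniform over the genes was tested by scaling each library to the summed UMIs of the 85 genes, so that a call means a gene moved apart from the family as a whole. In excitatory neurons 0 of 83 were called above the family (0 with an unadjusted p under 0.05), against 2.09% of all genes. Below it 1 was called, against 37.3% of all genes. That 1 was Rpl3l (relative log2 fold change −1.29 ± 0.432, adjusted p = 0.0157). Its call was lost without wildtype 1 (−0.996, adjusted p = 0.384), knockout 1 (−0.83, adjusted p = 0.186) or knockout 2 (−2.05, adjusted p = 0.0529), and it rests on the few UMIs given above. Rpl4 (relative −0.43 ± 0.212) and Rpl35a (0.20 ± 0.215) did not pass. The median SE of this fit was 0.216, so differences between genes of the size seen here were not detectable one gene at a time in this fit. With the replicate pair as a block 9 were called, 7 below the family (Rpl3l, Rpl4, Rpl7l1, Rpl22, Rpl15, Rpl5 and Rps6, against 64.4% of all genes) and 2 above it (Rpl35a among them, against 2.79%). In that fit Rpl4 was at −0.43 (adjusted p = 0.000702), Rpl22 at −0.32 (adjusted p = 0.00401) and Rpl35a at 0.196 (adjusted p = 0.0240). On the scale of the ordinary fit, 76 of the 83 genes lay within 2 SE of the family's median. That SE includes differences between animals that the genes share, so this count does not measure how uniform the shift was. The family's share itself was 1.18-fold higher in wildtype 2 than in wildtype 1.

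In the other 10 tested classes 1 gene was called apart from the family, Rpl23a in fibroblasts, against 0.0743% of all genes. Its UMIs were 4, 6, 12 and 22, or 48.4, 49.7, 202 and 299 CPM, without overlap (relative log2 fold change 1.76 ± 0.558, adjusted p = 0.0195). Leaving out any 1 of the 4 libraries ended this call, with adjusted p of 0.0624 without wildtype 1, 0.170 without wildtype 2, 0.0863 without knockout 1 and 0.593 without knockout 2. Rpl23a overlaps Tlcd1 on the opposite strand. Over those 10 classes the family's relative log2 fold changes had SDs of 0.117 in inhibitory neurons to 0.447 in fibroblasts, next to median SEs of 0.226 and 0.427. In each of the 9 classes without a call by edgeR, at most 2 genes had an unadjusted p under 0.05 on this scale, and DESeq2 was not run on it.

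The genes' features split the excitatory values only weakly. Genes of up to 4 exons had a median log2 fold change of 0.51 (10 of 21 called), genes of 5 or 6 exons 0.49 (17 of 41) and genes of 7 or more 0.38 (5 of 21). Spearman's rho of the change with the number of exons was −0.35 over the 83 genes, with gene length −0.24 and with transcript length −0.21, as a description of genes that share 4 libraries. The 29 genes that overlap another gene in GENCODE vM21 (24 on the opposite strand, 6 on the same) had a median of 0.50 with 10 called, and the other 54 tested had 0.47 with 22 called. The 31 that hold a small RNA gene in an intron or exon had a median of 0.47 with 12 called, and the 52 without had 0.47 with 20 called.

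The order within the family was partly shared between classes. Of 79 genes tested in all of the 6 largest glial and cortical neuron classes, 74 had a positive log2 fold change in all 6. Relative to the summed RNA of the family, 8 genes lay below in all 6 (Rpl4, Rpl22, Rpl3, Rplp0, Rpl7a, Rps18, Rpl10a and Rpl38), 5 lay above in all 6 (Rpl22l1, Rps13, Rpl28 and Rpl35a among them), and 66 lay on both sides. These genes are named because of this pattern, after their values were seen. Spearman's rho of the relative changes with those in excitatory neurons was 0.47 for inhibitory neurons, 0.41 for microglia, 0.40 for oligodendrocytes, 0.32 for oligodendrocyte precursors and 0.30 for astrocytes. The classes come from the same 4 libraries, so these are no independent repeats.

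The paralogs Rpl22 and Rpl22l1 stood on opposite sides of the family throughout. Rpl22 lay below the family in 7 of 7 tested classes, by 0.16 to 0.65 on the log2 scale, and its log2 fold change was 0.14 in excitatory neurons, 0.25 in oligodendrocytes, 0.22 in inhibitory neurons, 0.07 in astrocytes, 0.29 in microglia and −0.23 in oligodendrocyte precursors. Rpl22l1 lay above in 8 of 8 tested classes, by 0.04 to 0.74, and its log2 fold change was 0.61, 0.58, 0.44, 0.59, 0.61 and 1.17 in the same order. Neither gene was called apart from the family in any class without the replicate block.

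**Figure D4:**
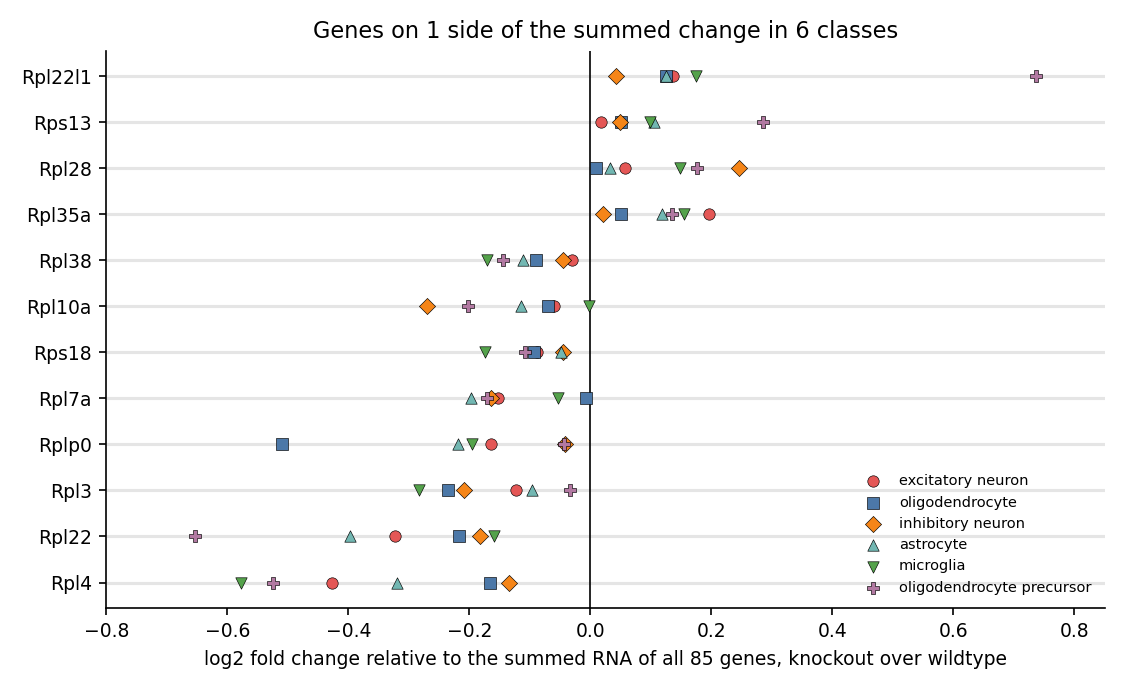
Log2 fold change relative to the summed RNA of the 85 genes (x axis) for 12 of the 13 genes (y axis) that lay on 1 side in all 6 classes, with 1 symbol per class. Rpl4 and Rpl22 are farthest to the left, and Rpl22l1 reaches 0.74 in oligodendrocyte precursors; Rpl10a in microglia and Rpl7a in oligodendrocytes lie close to 0.

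In oligodendrocytes 5 of 82 tested genes were called higher, against 0.512% of all genes, with a median log2 fold change of 0.48 and 77 genes without overlap against 21.3% of all. Rpl18 was at 95.7, 105, 151 and 179 CPM, without overlap (0.71 ± 0.143, adjusted p = 0.0253). Rpl10 was at 93.2, 91.8, 145 and 133 CPM (0.59 ± 0.137, adjusted p = 0.0458). In both genes the knockout libraries were well above both wildtype libraries.

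Rpl19 (0.59, adjusted p = 0.0468) and Rps14 (0.62, adjusted p = 0.0462) were also called and are named after their values were seen. Rplp0 and Rps6 had the lowest oligodendrocyte values and overlapping groups. Rplp0 was at 64.5, 45.4, 47.9 and 60.3 CPM (−0.03 ± 0.205, adjusted p = 0.969) and Rps6 at 58.9, 67.8, 72.5 and 62.0 CPM (0.09 ± 0.171, adjusted p = 0.880). The count was 0 without wildtype 1, 8 without wildtype 2, 42 without knockout 1 and 2 without knockout 2, and 59 with the replicate pair as a block (3.06% of all genes).

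In inhibitory neurons 6 of 81 tested were called higher, against 0.765% of all genes, with a median of 0.41 and 75 genes without overlap against 22.7%. Rpl19 was at 65.0, 71.6, 95.8 and 109 CPM (0.59 ± 0.111, adjusted p = 0.0222). Rpl28 was at 58.5, 67.9, 87.3 and 112 CPM (0.66 ± 0.133, adjusted p = 0.0319), and Rpl37 at 82.8, 96.0, 122 and 130 CPM (0.49 ± 0.101, adjusted p = 0.0369). None of these 3 overlapped between genotypes. Rpl41, Rpl6 and Rps27a complete the 6, with adjusted p of 0.0463, 0.0484 and 0.0416. The lowest values were those of Rpl15, at 91.3, 104, 97.2 and 117 CPM (0.13 ± 0.112, adjusted p = 0.665), and Rpl35, at 27.8, 23.4, 30.5 and 25.9 CPM (0.14 ± 0.170, adjusted p = 0.780). Both overlapped between genotypes. The count was 0 without wildtype 1, 26 without wildtype 2, 17 without knockout 1 and 0 without knockout 2, and 57 with the block (4.33% of all genes).

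In microglia Rps7 was called, 1 of 81 tested against 0.133% of all genes, with a median over the family of 0.43. It had 146, 161, 301 and 282 CPM from 69, 75, 138 and 145 UMIs, without overlap (0.92 ± 0.177, adjusted p = 0.0277). The call was lost without wildtype 1 (adjusted p = 0.0933), knockout 1 (0.0511) or knockout 2 (0.738), and the count was 4 without wildtype 2 and 22 with the block (1.56% of all genes). Rpl24 (216, 266, 360 and 396 CPM, 0.65 ± 0.176, adjusted p = 0.126) and Rpl30 (146, 144, 227 and 225 CPM, 0.64 ± 0.179, adjusted p = 0.133) came next and did not pass. Rpl4 was at 80.5, 72.8, 71.9 and 68.0 CPM (−0.13 ± 0.251, adjusted p = 0.900) and Rps27l at 27.5, 21.4, 10.9 and 25.3 CPM (−0.40 ± 0.485, adjusted p = 0.823). Of the 81 genes 67 had no overlap with the knockout libraries above, against 20.3% of all.

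No ribosomal protein gene was called in the other 7 tested classes by edgeR in its main setting or by DESeq2. Some other edgeR settings did call genes in these classes, as given in the last section. In astrocytes 0 of 81 were called, against 0.269% of all genes, with 53 at an unadjusted p under 0.05, a median of 0.44 and 72 without overlap against 20.6%. Among the smallest p values there were those of Rps4x (51.4, 64.7, 96.1 and 105 CPM, 0.80 ± 0.191, adjusted p = 0.156) and Rpl27a (127, 138, 203 and 211 CPM, 0.64 ± 0.162, adjusted p = 0.198). In these 2 genes the genotypes did not overlap. Rpl22 (45.7, 41.6, 39.6 and 51.5 CPM, 0.07 ± 0.220, adjusted p = 0.967) and Rpl7l1 (23.97, 31.4, 34.9 and 23.7 CPM, 0.07 ± 0.275, adjusted p = 0.970) were lowest and overlapped. The astrocyte count was 8 without knockout 1, 0 without any of the other libraries and 23 with the block (2% of all genes).

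In oligodendrocyte precursors 0 of 79 were called, against 0.0671% of all genes, with 35 at an unadjusted p under 0.05 and a median of 0.41. Without overlap were 53, against 18.3% of all. Rpl22l1 was at 38.2, 29.9, 62.0 and 91.7 CPM from 22, 17, 32 and 49 UMIs (1.17 ± 0.305, adjusted p = 0.321), and Rpl22 at 43.4, 52.7, 32.9 and 48.6 CPM from 25, 30, 17 and 26 UMIs (−0.23 ± 0.315, adjusted p = 0.915). Rps27a (0.64 ± 0.172, adjusted p = 0.343) was also among the smallest p values, and Rpl4 was at −0.10 ± 0.332 (adjusted p = 0.982). Without knockout 1 the count was 5, and without wildtype 2 it was 2.

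In the Pbx3 and Rgs9 neurons 0 of 81 were called, against 0% of all genes, with 18 at an unadjusted p under 0.05 and a median of 0.43. Rps3a1 was at 53.9, 44.8, 102 and 82.2 CPM (0.89 ± 0.228, adjusted p = 0.858), Rpl17 at 0.74 ± 0.234 and Rps15a at 0.83 ± 0.271 on the log2 scale (adjusted p = 0.951 each). The lowest were Rpl4 (−0.28 ± 0.268) and Rpl7l1 (−0.15 ± 0.277). Knockout 1 holds 932 of the 2180 nuclei of this class, and without knockout 2 the count was 7.

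The vascular, meningeal and committed precursor classes had 45428 to 173957 UMIs per library, and 0 genes of the family were called in each; 0% of all genes were called higher in each. In fibroblasts the median over 60 tested genes was 0.59, with 18 at an unadjusted p under 0.05, and Rpl23a led (2.33 ± 0.4995, adjusted p = 0.105), followed by Rpl24 (1.10 ± 0.359). Rpl17 (−0.28 ± 0.407) and Rps18 (−0.26 ± 0.409) were lowest, and without wildtype 1 the count was 1. In mural cells the median over 58 genes was 0.54, with 14 at an unadjusted p under 0.05, from Rps26 (1.58 ± 0.493), Rpl8 (1.16 ± 0.421) and Rpl38 (0.97 ± 0.330) to Rps3a1 (−0.14 ± 0.462) and Rpl13 (−0.10 ± 0.387).

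Committed oligodendrocyte precursors had a median of 0.44 over 36 genes, with 3 at an unadjusted p under 0.05. Rpl19 (1.68 ± 0.567), Rps13 (1.40 ± 0.506) and Rpl27a (1.04 ± 0.445) led there, and Rpl17 (−0.49 ± 0.606) and Rps12 (−0.24 ± 0.455) were lowest. Endothelial cells had a median of 0.59 over 33 genes, with 6 at an unadjusted p under 0.05, and all 33 values were positive. Rpl24 (1.54 ± 0.499), Rps27a (1.33 ± 0.503) and Rpl28 (1.25 ± 0.439) led, and Rpl13a (0.07 ± 0.630) and Rpl19 (0.17 ± 0.387) were lowest. Counts of 2 to 44 UMIs per gene and library stand behind the values named for these 4 classes, and with the filter on low counts only the better measured genes of the family are seen there.

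Among the neuronal subclasses the calls followed the number of UMIs only in part. Layer 6 CT neurons had 27 of 82 called higher (background 2.19%), the unnamed excitatory cluster 4 had 31 of 82 (2.45%), layer 4/5 IT neurons 19 of 81 (1.57%) and layer 2/3 IT neurons, with the most UMIs, 6 of 82 (1.64%). The medians were 0.48, 0.52, 0.51 and 0.42. Cluster 20 had 10 of 80 called (0.831%), cluster 14 had 7 of 80 (1.07%), the claustrum or layer 6 Car3 neurons 7 of 79 (0.963%), Sst interneurons 3 of 80 (0.628%) and cluster 21 had 1 of 78 (0.563%). In layer 6b, Pvalb, Vip or Lamp5 neurons and in clusters 2 and 23 none was called by edgeR, with 13, 48, 35, 49 and 15 at an unadjusted p under 0.05 and medians of 0.42, 0.47, 0.37, 0.52 and 0.51. Differences between subclasses were not tested.

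Whether the genotype effect on single genes differed between classes was tested against excitatory neurons with library as a block. No gene of the family was called in 5 such comparisons by edgeR, and DESeq2 was not run on them. For inhibitory neurons 0.364% of all genes had a higher and 0.38% a lower effect. The family's median difference was −0.10, against −0.02 for all genes. Of the family, 8 genes had an unadjusted p under 0.05, all with a lower effect in inhibitory neurons. The smallest adjusted p was 0.231 (Rps10, −0.34 ± 0.109). For oligodendrocytes (0.305% and 0.647% of all genes) the median was −0.03, 2 genes had an unadjusted p under 0.05 (1 in each direction), and the smallest adjusted p was 0.104 (Rpl15, 0.36 ± 0.114).

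For astrocytes (0.0627% and 0.125% of all genes) the median difference was −0.04, with 1 gene, of higher effect, at an unadjusted p under 0.05. For oligodendrocyte precursors (0.0862% and 0.119%) it was −0.05, with 2 genes (1 in each direction). For microglia (0.0641% and 0.0961%) it was −0.03, with 3 genes, all of lower effect. The smallest adjusted p in these was 0.871, 0.536 and 0.763. The difference at the median was thus largest for inhibitory neurons (−0.10) and ran from −0.03 to −0.05 in the other comparisons. Single genes with few UMIs in the second class carried wide errors.

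At the median, the family differed more between glial and excitatory nuclei of the wildtype libraries than between genotypes, and less between inhibitory and excitatory neurons. Against excitatory neurons, 82 of 82 genes were called higher in oligodendrocytes (background 26.8% of all genes), with a median log2 difference of 1.37. Rpl7 had the largest difference there (1.59 ± 0.111) and Rpl7l1 the smallest (0.47 ± 0.170). In microglia 81 of 83 were higher (background 17.9%, median 1.27), in astrocytes 78 of 83 (21.4%, median 0.76), in oligodendrocyte precursors 71 of 83 (13%, median 0.71) and in inhibitory neurons 20 of 83 (17.7%, median 0.15). The classes differ in UMIs per nucleus (median 984 in oligodendrocytes and 4056.5 in excitatory neurons of wildtype 1), and shares fall with depth in these data. In nuclei of 1000 to 2000 UMIs the wildtype 1 shares were 0.567% in excitatory neurons, 0.612% in inhibitory neurons, 0.790% in astrocytes, 0.782% in oligodendrocyte precursors, 1.04% in oligodendrocytes and 1.23% in microglia. In wildtype 2 they were 0.708, 0.752, 0.927, 0.920, 1.13 and 1.30%, so the glial classes lay above neurons in this range of depth too. This family was left out of the variable genes on which the nuclei were clustered.

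The 4 ribosomal components left out by the name rule had values of about the family's size. Fau, made as a fusion of Rps30 with a ubiquitin-like protein, was at 69.8, 90.9, 108 and 125 CPM in excitatory neurons, without overlap (log2 fold change 0.54 ± 0.129, adjusted p = 0.0567). Rpsa was at 47.3, 59.0, 61.7 and 76.7 CPM (0.38 ± 0.136, adjusted p = 0.162). The median over the 4 was 0.42, against 0.00 for all genes tested, and 0 of 4 were called (3 at an unadjusted p under 0.05, 1 by DESeq2, 3 without knockout 1 and 1 without wildtype 2 or knockout 2).

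The rest of the translation machinery stood near the median of all genes. Over 8 elongation factor genes the excitatory median was 0.09, with 1 called higher, Eef1b2 (17.4, 20.7, 27.3 and 28.0 CPM, 0.54 ± 0.116, adjusted p = 0.0416). Eef1a1 was at 67.9, 69.8, 71.9 and 76.2 CPM (0.11 ± 0.080, adjusted p = 0.499), and Eef2 at 33.3, 38.2, 33.4 and 30.7 CPM (−0.16 ± 0.113, adjusted p = 0.469). The mRNAs of both carry a TOP tract. Of 38 initiation factor genes 0 were called (5 higher and 3 lower at an unadjusted p under 0.05, 0 by DESeq2), with a median of 0.01; Eif1 (0.25), Eif3c (0.23) and Eif3k (0.40) had the smallest p values.

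Of 13 other TOP genes 0 were called (3 at an unadjusted p under 0.05, 1 by DESeq2), with a median of 0.08. Naca, of the nascent polypeptide complex, was at 44.0, 46.7, 57.6 and 61.8 CPM (0.40 ± 0.093, adjusted p = 0.0531), Tpt1 at 0.30 (adjusted p = 0.138) and Btf3 at 0.29 (adjusted p = 0.197). Of 45 ribosome biogenesis genes 0 were called (4 higher and 2 lower at an unadjusted p under 0.05, 0 by DESeq2), with a median of 0.03; Nhp2 (0.64), Nop10 (0.42) and Noc2l (0.26) had the smallest p values. Of 22 tested genes that signal growth to ribosomes 0 were called (2 lower at an unadjusted p under 0.05, 0 by DESeq2), with a median of −0.09, among them Rps6ka3 (−0.29, adjusted p = 0.0835), Rictor (−0.27, adjusted p = 0.131) and Eif4ebp1 (0.47, adjusted p = 0.281). Without knockout 1 the calls were 2 initiation, 1 TOP and 3 biogenesis genes higher and 2 growth signalling genes lower; without wildtype 2, 1 biogenesis gene; and without wildtype 1 the elongation call was lost. With the replicate pair as a block, 5 initiation genes were called higher and 1 lower, 2 TOP and 4 biogenesis genes higher, and 2 growth signalling genes lower.

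Other short, abundant mRNAs had positive medians, and most of them did not pass the test. Of 78 tested nuclear genes for oxidative phosphorylation 5 were called higher, against 2.94% of all genes (18 by DESeq2, against 3.13%), with a median of 0.39. The count was 1 without wildtype 1, 33 without wildtype 2, 50 without knockout 1 and 7 without knockout 2, and 56 with the replicate pair as a block (9.8% of all genes). Cox6a2 was at 3.26, 4.69, 8.01 and 12.02 CPM (1.33 ± 0.238, adjusted p = 0.0200), Atp5md at 62.2, 69.1, 86.8 and 91.0 CPM (0.44 ± 0.085, adjusted p = 0.0287) and Atp5k at 76.7, 85.8, 106 and 115 CPM (0.45 ± 0.088, adjusted p = 0.0299). Of 29 other abundant short mRNAs 5 were called higher against the same shares of all genes (9 by DESeq2), with a median of 0.33, among them Ubb (227, 236, 302 and 321 CPM, 0.43 ± 0.074, adjusted p = 0.0176), Ftl1 (0.61, adjusted p = 0.0205) and Ppia (0.45, adjusted p = 0.0338). That count was 0 without wildtype 1, 12 without wildtype 2, 19 without knockout 1, 5 without knockout 2 and 20 with the block.

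Genes for the mitochondrial ribosome had a median of 0.24 with 0 of 78 called (26 higher and 1 lower at an unadjusted p under 0.05, 1 by DESeq2, 13 without knockout 1, 1 without wildtype 2, and 22 higher and 1 lower with the block). Mrps10 (0.42, adjusted p = 0.0512), Mrpl11 (0.52, adjusted p = 0.0544) and Mrpl52 (0.42, adjusted p = 0.0698) came closest. The 13 mitochondrially encoded genes had a median of 0.57 with 0 called (8 at an unadjusted p under 0.05, 0 by DESeq2), but 12 were called without wildtype 2, 12 without knockout 2 and 7 with the block. They had a wide spread between libraries, as in mt-Co3 at 246, 433, 581 and 496 CPM (0.67 ± 0.217, adjusted p = 0.130); mt-Cytb (0.62) and mt-Co2 (0.60) were alike. The 10 nuclear long noncoding RNAs had a median of −0.06 with 0 called (1 higher and 2 lower at an unadjusted p under 0.05, 0 by DESeq2, 1 higher and 3 lower with the block), including Malat1 (0.18, adjusted p = 0.121), Meg3 (−0.12, adjusted p = 0.0955) and Mirg (−0.21, adjusted p = 0.160).

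Oxidative phosphorylation genes stood above initiation factors in the other large classes as well. Median log2 fold changes of the oxidative phosphorylation genes were 0.38 in oligodendrocytes, 0.32 in inhibitory neurons, 0.38 in astrocytes, 0.33 in microglia and 0.34 in oligodendrocyte precursors, while those of initiation factors were 0.12, 0.05, −0.01, 0.01 and 0.07. Each stood below the ribosomal protein median of its class.

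Gene length also moved with the change. Among all other genes tested in excitatory neurons, the median log2 fold change was 0.17 for genes of up to 2 kb, 0.13 for 2 to 5 kb, 0.07 for 5 to 10 kb, 0.03 for 10 to 20 kb, −0.02 for 20 to 50 kb, −0.04 for 50 to 100 kb and −0.08 for those over 100 kb. The ribosomal protein genes are short (median 3.289 kb, from 0.374 to 31.449 kb). Their medians were 0.51 up to 2 kb (11 genes), 0.47 at 2 to 5 kb (54 genes) and 0.47 at 5 to 10 kb (14 genes), each above other genes of the same length. In oligodendrocytes other genes of 2 to 5 kb had a median of 0.21 and the family 0.48; in microglia these were 0.23 and 0.42, and in fibroblasts 0.60 and 0.64. The part of length in the ribosomal result was not tested.

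**Figure D5:**
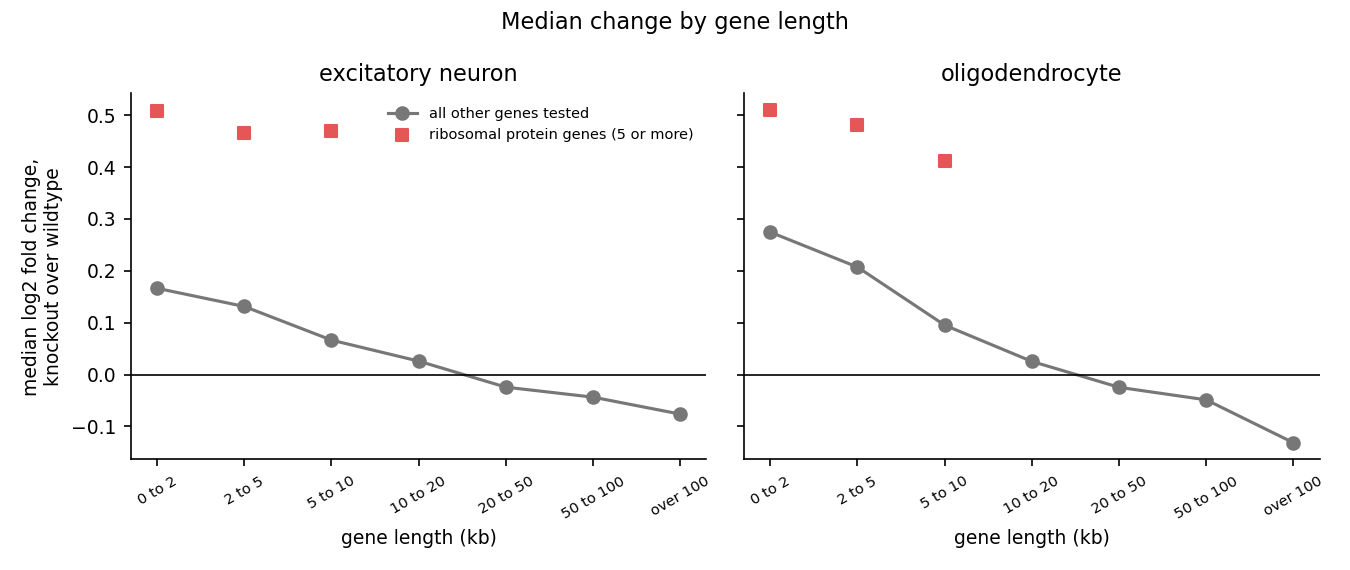
Median log2 fold change, knockout over wildtype (y axis), of all other genes (line) and of the ribosomal protein genes (squares, where a range holds 5 or more), by gene length in kb (x axis), in excitatory neurons and oligodendrocytes. In excitatory neurons the line falls from 0.17 to −0.08 and the squares lie at 0.51, 0.47 and 0.47.

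Markers of other cell types in the excitatory sums moved in both directions. Summed over the list of 9, oligodendrocyte markers were at 207, 224, 192 and 191 CPM and astrocyte markers at 618, 643, 535 and 486 CPM, lower in the knockout libraries. The 9 microglial markers summed to 128, 145, 161 and 184 CPM, with 5 of 9 higher in both knockout libraries, and 5 erythroid markers to 56.6, 58.0, 68.1 and 78.4 CPM. The 8 endothelial markers summed to 7.75, 8.83, 40.9 and 44.8 CPM, in the knockout libraries most of it from Pecam1 (3.14, 3.93, 36.1 and 37.5 CPM, named after its values were seen), while Cldn5 stayed between 0.267 and 0.592 CPM. No marker of these lists was at 0. Their part in the ribosomal result was not tested.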

How the data were processed

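The deposited files hold whole-number UMI counts for every gene in every barcode. The submitters' processing notes name Cell Ranger 7.1.0 and the mm10 build. Whether intronic reads were counted is left unstated there, and no normalized values were used. Nuclei needed 500 UMIs, 300 genes and a mitochondrial share of 5% or less, and doublets were removed with Scrublet at an expected 10% in scanpy 1.11.5. Nuclei were clustered (2000 variable genes, 30 components, 15 neighbours, Leiden resolution 1) and clusters named from marker lists. The scores needed for a name were set after seeing the data, and 5 clusters stayed unnamed.

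UMIs were summed per library and class, since nuclei are not replicates. Tests used edgeR 4.0.16 (quasi-likelihood, TMM, filterByExpr with a minimum count of 10, Benjamini-Hochberg over all genes of the class, 2 animals per genotype), in R 4.3.3. CPM values are per 1000000 UMIs of the class after TMM scaling, and shares are of all UMIs. The uniformity test used the summed UMIs of the 85 genes as library size, and differences between classes a term for genotype by class with library as a block. The scripts were tested on simulated data. Alternatives were DESeq2 1.42.0, other scalings, no filter on low counts, a replicate block, deeper nuclei, low mitochondrial nuclei, doublets kept and leaving out each library; runs of the other gene lists without each library, under a block and under other scalings, and shares within single astrocyte clusters, were added after seeing the data.

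The genes and lists were chosen with earlier results of these data known. A rule chose the genes named: for excitatory neurons the 8 highest and 8 lowest changes, the P-stalk genes and the paralogs, in each other class the 3 smallest p values and the 2 lowest changes, genes called in the uniformity test, and up to 3 of each other list. A few genes that the rule picked are not reported here.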

Additional observations from a re-analysis of the deposited data

Results flagged for a closer look

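Nuclei in the 5 clusters that stayed unnamed were left out of the class comparisons. Only in cluster 9 did no marker list reach its minimum score. Cluster 6 scored as excitatory neurons, but had few UMIs and no marker among its leading genes. Cluster 26 carried markers of both excitatory neurons and oligodendrocytes. Markers of committed oligodendrocyte precursors stood beside those of astrocytes in cluster 18 and those of fibroblasts in cluster 28. In 4 of these 5 clusters the ribosomal protein share was above that of the wildtype libraries in both knockout libraries. In cluster 6 (2241 nuclei, led by Bc1, Ftl1, Mt2, Fau, Mt1 and Atp5k, with a median of 977 UMIs per nucleus) it was 1.99, 2.22, 4.75 and 5.09% in wildtype 1, wildtype 2, knockout 1 and knockout 2, a ratio of mean shares of 2.33. These shares are the highest of any group of nuclei here. The cluster's leading genes include short, abundant mRNAs such as Ftl1 and Fau, which were not left out of the clustering. Cluster 9 (179 nuclei, led by Slco2b1, Inpp5d, Ikzf1 and Runx1) had 0.285, 0.3802, 0.481 and 0.508%, a ratio of 1.49. Cluster 26 (272 nuclei) had 0.291, 0.330, 0.408 and 0.476%, a ratio of 1.42. Cluster 28 (331 nuclei, led by Slc47a1, Bnc2 and Eya2) had 0.721, 0.872, 1.19 and 1.01%, a ratio of 1.38. In cluster 18 (35 nuclei) the libraries overlapped. These ratios were not tested, and the cluster names were chosen after their values were seen.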

How the results depend on the processing

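With 2 animals per genotype, the direction of the family's shift held under the alternatives run, and the number of calls did not. The median log2 fold change over the genes stayed positive in every class and setting, from 0.21 in the Pbx3 and Rgs9 neurons without knockout 1 to 0.73 in fibroblasts without knockout 1. Without the filter on low counts the genes called higher were 0 in excitatory neurons, 1 in oligodendrocytes, 0 in inhibitory neurons, 2 in astrocytes, 0 in microglia and 1 in fibroblasts (fibroblast median 0.45), and 2 excitatory and 0 fibroblast genes were called apart from the family. DESeq2's Wald test called 51 in excitatory neurons, 9 in oligodendrocytes, 0 in inhibitory neurons and 0 in microglia. Library totals without factors gave 1 in oligodendrocytes, 1 in fibroblasts, and 43 genes higher in wildtype inhibitory than excitatory neurons. Nuclei of at least 2000 UMIs gave 3 in inhibitory neurons, an astrocyte median of 0.26 and an astrocyte share ratio of 1.18 with overlapping groups. At most 0.5% mitochondrial UMIs gave 1 in oligodendrocytes, a fibroblast median of 0.51 and a fibroblast share ratio of 1.37, and turned Rplp0 in oligodendrocytes to 0.0048, Rpl7l1 in astrocytes to −0.052 and Rps18 in fibroblasts to 0.037. Keeping doublets gave 1 in oligodendrocytes, 12 in inhibitory neurons, 3 in astrocytes and 2 in oligodendrocyte precursors. Rpl13a in endothelial cells was −0.020 with DESeq2. The cause of these changes was not tested.

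The labels give the replicate numbers no meaning, but both replicate 1 libraries held Y-linked RNA and both replicate 2 libraries Xist, so the block is also one on sex-linked RNA. Over 19134 genes the deviations of the same-numbered libraries in excitatory neurons correlated at 0.37, with 2 pairs. With replicate number as a block, genes called higher were 72 in excitatory neurons, 59 in oligodendrocytes, 57 in inhibitory neurons, 23 in astrocytes, 22 in microglia and 2 in fibroblasts; called apart from the family were 9, 3, 2, 0, 1 and 1; and Rpl13a in endothelial cells was −0.046.

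Leaving out each library in turn, the genes called higher ranged from 0 to 72 in excitatory neurons, 0 to 42 in oligodendrocytes, 0 to 26 in inhibitory neurons, 0 to 8 in astrocytes, 0 to 4 in microglia, 0 to 7 in Pbx3 and Rgs9 neurons, 0 to 5 in oligodendrocyte precursors and 0 to 1 in fibroblasts. A lone library is assumed to vary like the other genotype. The share of all genes called in these runs is not given, so the counts show only the dependence on single libraries. Those apart from the family ranged from 0 to 1 in excitatory neurons and oligodendrocytes, with 0 in fibroblasts. Medians ranged from 0.36 to 0.54 in microglia, 0.21 to 0.62 in Pbx3 and Rgs9 neurons, 0.50 to 0.73 in fibroblasts and 0.24 to 0.64 in committed precursors. List medians in excitatory neurons ranged from −0.0015 to 0.054 for initiation, −0.031 to 0.069 for biogenesis, 0.22 to 0.99 for mitochondrially encoded and 0.24 to 0.53 for oxidative phosphorylation genes. Single genes that changed sign ranged as follows on the log2 scale: Rpl4 in excitatory neurons −0.063 to 0.12, Rplp0 and Rps6 in oligodendrocytes −0.27 to 0.24 and −0.013 to 0.20, Rpl15 in inhibitory neurons −0.011 to 0.25, Rpl22 and Rpl7l1 in astrocytes −0.15 to 0.23 and −0.22 to 0.33, Rps27l in microglia −1.14 to 0.058, Rpl7l1 in Pbx3 and Rgs9 neurons −0.31 to 0.095, Rpl22 in oligodendrocyte precursors −0.54 to 0.014, Rps18 in fibroblasts −0.83 to 0.086, Rps3a1 and Rpl13 in mural cells −0.46 to 0.30 and −0.55 to 0.35, Rpl17 in committed precursors −1.48 to 0.12, and Rpl13a in endothelial cells −0.54 to 0.81.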
